A study of Mus musculus with 4 samples.

Results

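Cycling macrophages are the macrophages of tumor ascites that carry transcripts of the proliferation genes Mki67 and Top2a. They were picked by raw UMI counts (UMIs are molecular tags that count each captured RNA molecule once). A barcode was a member if it had 1000 to 4800 genes and at most 15% mitochondrial UMIs. It needed at least 3 UMIs summed over the macrophage genes C1qa, C1qb, C1qc, Csf1r and Adgre1, and at least 2 UMIs summed over Mki67 and Top2a. It could hold no UMI of Cd79a (B cells) or Cd3e (T cells), fewer than 2 of Nos2, and fewer than 3 summed over Wt1, Zfpm2 and Kcnd2 (tumor or mesothelial cells). The rule found 746 members among 12012 macrophages and 133849 deposited barcodes. Replicates 1 and 2 of siCont held 412 and 192 members, and replicates 1 and 2 of siFXR1-LNA held 45 and 97. Because these 13 genes chose the cells, their levels are given as a description with no test.

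The cells came from ascites of female FVB mice, 6 weeks after intraperitoneal injection of Br-Luc ovarian cancer cells, a mouse line given in the study as p53-/-, brca1-/-, myc and Akt-myr. Mice received siRNA carried by jetPEI, either a control siRNA (labelled siCont, and siCont-LNA in the methods) or siFXR1-LNA, which targets mouse Fxr1 and carries locked nucleic acids. Both groups had the same hosts, tumor cells and carrier, and differed in the siRNA. Each group had 2 libraries, each made from ascites of 3 mice pooled according to the methods, so values of single mice were not measured and the spread between 2 libraries is all that the tests have. Per the labels, red cells were lysed before loading. The methods left out a siFXR1-LNA replicate with fewer reads, and both replicates are used here.

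Many tissue macrophages can divide where they sit. Resident macrophages of the peritoneal cavity maintain their numbers by local division, and macrophages that arrive as monocytes can also divide after they settle, driven by signals such as CSF1 through its receptor Csf1r. In the cell cycle, D-type cyclins start the passage out of G1, E2F factors switch on the DNA replication genes of S phase, and later a second wave with Ccnb1, Cdk1 and Plk1 carries the cell through G2 and mitosis. Mki67 and Top2a are highest in G2 and mitosis, so a rule built on them picks cells late in the cycle more readily than cells that have just entered S phase.

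Fxr1, the target of the siRNA, was not lower in the libraries labelled siFXR1-LNA. Cycling macrophages had 58.7 CPM in siCont 1, 59.9 in siCont 2, 84.2 in siFXR1-LNA 1 and 80.0 in siFXR1-LNA 2 (CPM, the UMIs of a gene scaled to a fixed total over the summed members of a library). Both siFXR1-LNA libraries lay above both siCont libraries (log2 fold change 0.61 ± 0.20 SE, adjusted p = 0.129). In non-cycling macrophages the levels were 65.8, 60.9, 75.2 and 75.7 CPM, in the same order of libraries. Fxr2 and Fmr1, its relatives, did not pass the test either (log2 fold changes 0.20 and -0.16). The groups are therefore named by their labels.

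The 4 libraries held 17309 to 54665 barcodes and 78179267 to 113606837 UMIs. The hemoglobin share of all UMIs was 29.5% and 41.1% with siCont, against 10.0% and 9.11% with siFXR1-LNA. Between 3.45% and 7.88% of the barcodes of the smaller library of each pair also occurred in the other, but 0 barcodes were members in both libraries of a pair. The summed members held 2778311 and 2219874 UMIs in siCont and 368152 and 987295 UMIs in siFXR1-LNA, so that 3 UMIs were worth 8.15 CPM in siFXR1-LNA replicate 1 and 1.08 to 3.04 CPM in the other libraries. Median depth per member was 6306.5, 11472, 7602 and 9793 UMIs in the order siCont 1, siCont 2, siFXR1-LNA 1, siFXR1-LNA 2, against 4915, 7945, 4221 and 5117.5 UMIs in non-cycling macrophages (macrophages of the same rule with no UMI of Mki67 or Top2a, 3007, 1505, 2155 and 3002 cells).

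The members carried the markers of their name. Csf1r, the receptor for CSF1, was at 533, 553, 559.6 and 531 CPM in siCont 1, siCont 2, siFXR1-LNA 1 and siFXR1-LNA 2, and at 661, 562, 465 and 561 CPM in non-cycling macrophages. C1qa, a complement chain made by macrophages, was at 3197, 2608, 1263 and 1989 CPM in members. It was lower in both siFXR1-LNA libraries than in both siCont libraries, while Adgre1, which encodes F4/80, was higher there (91.4, 159, 261 and 314 CPM). Mki67 was at 363, 387, 329 and 285 CPM and Top2a at 422, 356, 212 and 148 CPM in members. Single members held 2 to 41 UMIs of the 2 genes together.

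How far a member looked like a dividing cell depended on how many UMIs of Mki67 and Top2a it held. To compare cells of unlike depth, each was thinned to 2000 UMIs, and the UMIs of 40 DNA replication genes and 50 mitosis genes, none of them in the rule, were counted. Members with 4 or more UMIs of Mki67 and Top2a held a mean of 17.5, 17.1, 19.6 and 14.3 mitosis UMIs in the 4 libraries, against 2.52, 2.03, 1.96 and 2.17 in non-cycling macrophages. Just inside the threshold, members with exactly 2 UMIs held 4.32, 6.36, 2.05 and 4.12. Just outside it, macrophages with exactly 1 UMI held 2.81, 2.62, 2.44 and 2.23, close to the non-cycling cells. In siFXR1-LNA replicate 1 the 20 of 45 members with 2 UMIs were thus near the level of cells with none, 2.05 against 1.96. Of all thinned members, 48.2%, 77.1%, 31.1% and 38.1% held 10 or more UMIs of the 2 lists. The members that met this stricter mark were 192, 148, 14 and 37 cells, and calls of the group comparison are set beside those among them.

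**Figure D1:**
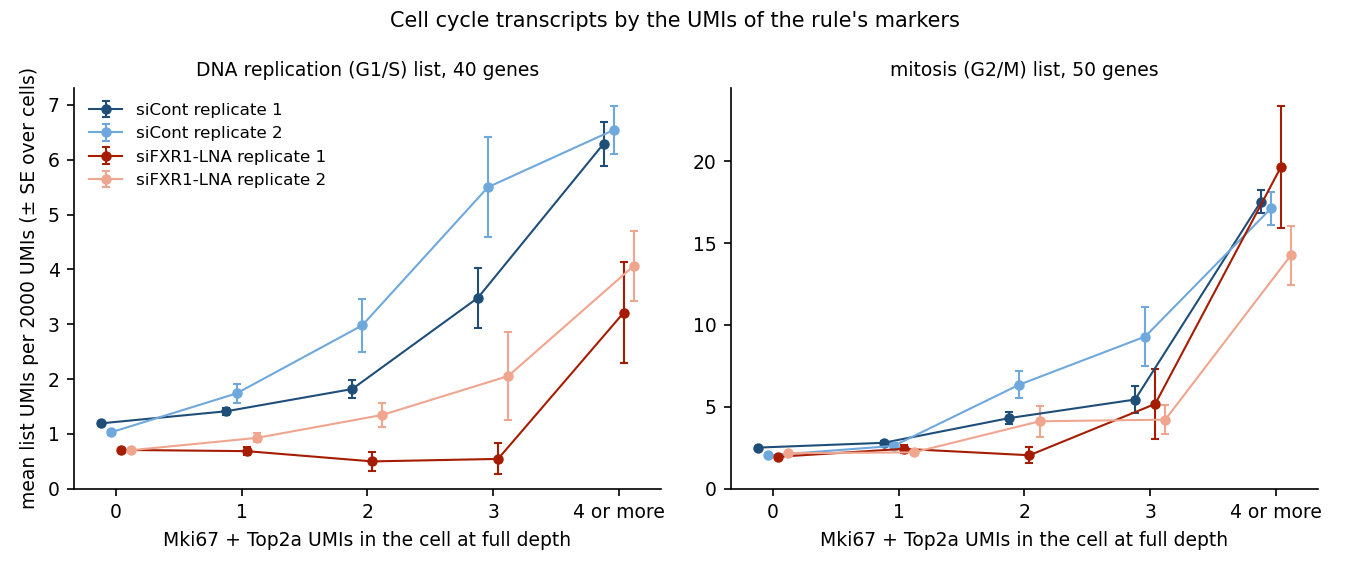
Mean UMIs of the DNA replication list (left) and the mitosis list (right) per cell thinned to 2000 UMIs, by the Mki67 plus Top2a UMIs the cell held at full depth, for the 4 libraries, and bars are standard errors over cells, which are not replicates. Mitosis UMIs lie between 1.96 and 2.81 in cells with 0 or 1 marker UMI and reach 14.3 to 19.6 in cells with 4 or more, and replication UMIs in cells with 4 or more are 6.29 and 6.54 in siCont against 3.21 and 4.07 in siFXR1-LNA.

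Cycling macrophages made up a larger share of macrophages in both siCont libraries than in both siFXR1-LNA libraries. The share was 9.65% (95% exact binomial interval 8.78% to 10.6%) and 10.0% (8.73% to 11.5%) in siCont replicates 1 and 2. It was 1.85% (1.35% to 2.47%) and 2.85% (2.32% to 3.47%) in siFXR1-LNA replicates 1 and 2. The intervals cover counting error within a library only. The group means were 9.84% ± 0.280 and 2.35% ± 0.707 (SD, n = 2 libraries each), so that the siFXR1-LNA share was lower by 7.49 percentage points and the siCont share was 4.18 times the siFXR1-LNA share. The libraries of the 2 groups did not overlap, and the two-sided exact permutation test gave p = 0.333, the smallest that 2 libraries against 2 allow.

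The order of the groups was the same at matched depth. With every cell thinned to 2000 UMIs, 4.00% (165 of 4122) and 3.76% (71 of 1889) of siCont macrophages held 2 or more UMIs of Mki67 and Top2a, against 0.425% (10 of 2353) and 0.765% (25 of 3270) of siFXR1-LNA macrophages. By a measure that uses no gene of the rule, macrophages with 10 or more UMIs of the replication and mitosis lists in 2000 were 8.47% and 11.2% in siCont and 1.44% and 2.20% in siFXR1-LNA. B cells and neutrophils give the level that free RNA and their own division can reach in droplets of the same library. Of B cells thinned to 2000 UMIs, 2.24% (14 of 625) and 0.119% (1 of 837) in siCont and 0.633% (1 of 158) and 0 of 108 in siFXR1-LNA held 2 or more UMIs of Mki67 and Top2a, and a count of 0 of 108 allows a share of up to 2.78%. Median depth of these B cells before thinning was 3206, 3998, 2613.5 and 2616.5 UMIs, against 5167.5, 8492, 4475 and 5648 in the macrophages. Of neutrophils, 0.923% (6 of 650) in siFXR1-LNA replicate 1 and 0 of 364 in replicate 2 did so, the latter allowing up to 0.824%. The thinned share of siFXR1-LNA replicate 1, 0.425%, was below the shares of both comparison types in its library, so by these 2 genes at this depth it could not be told from the level of other cells, of which the B cell share rests on 1 cell (interval 0.0160% to 3.48%). By the list measure the macrophages of that library were at 1.44%, its B cells at 0.633% and its neutrophils at 1.23%, with overlapping intervals. Of its 14 members with 4 or more UMIs of Mki67 and Top2a, 78.6% held 10 or more list UMIs. The part of free RNA was not tested. Thinned T cells of siFXR1-LNA replicate 1 were at 0 of 18, and its cells with 3 or more UMIs of Wt1, Zfpm2 and Kcnd2 at 0.496% (4 of 807). The share of siFXR1-LNA replicate 2, 0.765%, lay within the limits its B cells and neutrophils allow. Its T cells were at 1.94% (2 of 103) and its Wt1, Zfpm2 and Kcnd2 cells at 0.775% (1 of 129). By the list measure its macrophages were at 2.20% (interval 1.73% to 2.76%). Its neutrophils were at 0 of 364 (0% to 1.01%), an interval apart from that of the macrophages. Its B cells were at 0.926% (1 of 108, 0.0234% to 5.05%), with overlap. In siCont the thinned macrophage shares were above those of B cells, but not above those of every class. In siCont replicate 1, T cells were at 4.42% (5 of 113), cells with 3 or more UMIs of Wt1, Zfpm2 and Kcnd2 at 5.75% (13 of 226) and neutrophils at 12.5% (1 of 8). In siCont replicate 2 these classes were at 1.36% (6 of 442), 0 of 53 and 1.35% (1 of 74). By 10 or more list UMIs, T cells were at 16.8% and 5.88% and the Wt1, Zfpm2 and Kcnd2 cells at 15.04% and 9.43% in siCont. In siFXR1-LNA, T cells were at 0 of 18 and 3.88% (4 of 103). The Wt1, Zfpm2 and Kcnd2 cells were at 1.73% (14 of 807) and 1.55% (2 of 129) there. B cells were at 4.80% and 0.956% in siCont against 0.633% and 0.926%. A lower share in both siFXR1-LNA libraries was thus not particular to macrophages. By the thinned UMIs of Mki67 and Top2a, the intervals of siCont macrophages and B cells lay apart in replicate 2, 2.95% to 4.72% against 0.00302% to 0.664%. In replicate 1 they overlapped, 3.43% to 4.65% against 1.23% to 3.73%.

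**Figure D2:**
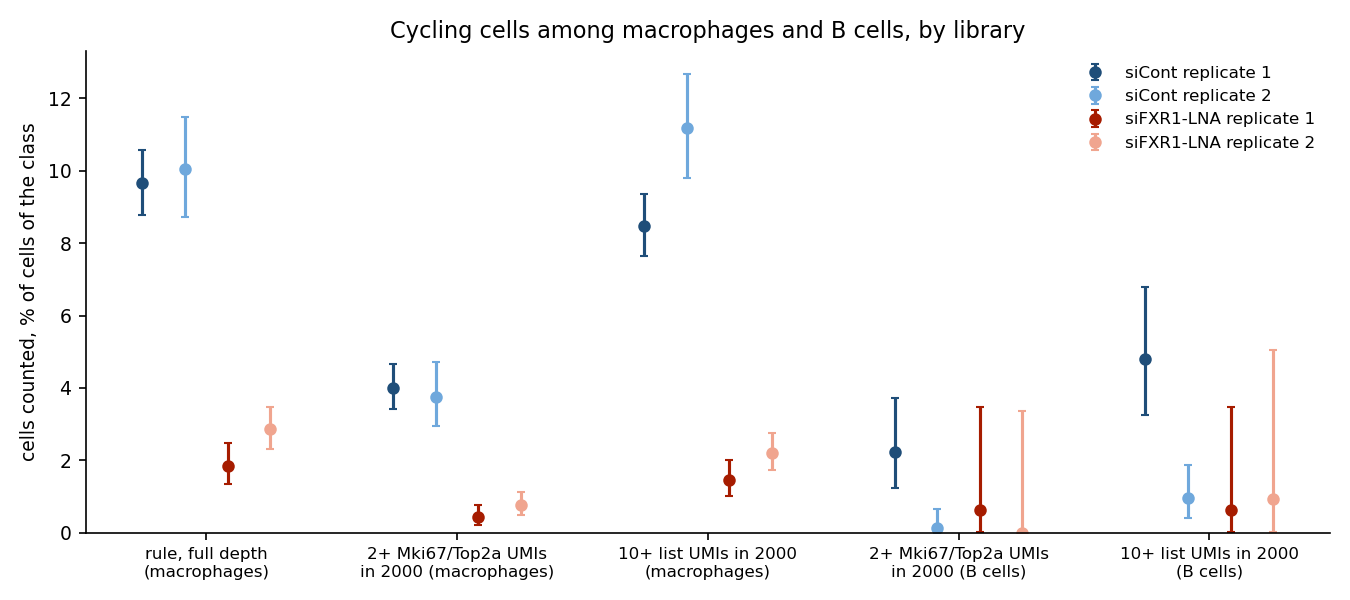
Share of cells counted as cycling, in percent of the cells of the class, in the 4 libraries: macrophages by the rule at full depth, macrophages thinned to 2000 UMIs with 2 or more UMIs of Mki67 and Top2a, macrophages with 10 or more UMIs of the replication and mitosis lists in 2000, and B cells by the last 2 measures. Points are libraries and bars are 95% exact binomial intervals, and in each macrophage panel both siCont libraries lie above both siFXR1-LNA libraries (9.65% and 10.0% against 1.85% and 2.85% by the rule).

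The share was lower in both siFXR1-LNA libraries than in both siCont libraries in macrophages of 3 kinds, counted over cells of at least 2000 UMIs. The UMIs that set a kind were those left in the cell after thinning to 2000. Cycling cells were counted by the rule at full depth, so these shares are not matched on depth. Among macrophages with at least 1 UMI of Lyve1 or Folr2, genes of perivascular and serosal resident macrophages, 9.17% and 12.7% were cycling in siCont and 2.61% (6 of 230) and 4.34% (17 of 392) in siFXR1-LNA. Among macrophages with at least 1 UMI of Ccr2, a receptor of monocytes that have recently entered tissue, the shares were 10.9% and 9.60% against 1.58% (6 of 380) and 3.35% (16 of 477). Among those with a UMI of Alox15 or Prg4, genes of large peritoneal macrophages, they were 5.66% and 8.14% against 1.62% (5 of 308) and 4.07% (9 of 221). Within siCont this last kind had lower shares than macrophages without these genes, at 10.2% and 10.6%, and its cells were not shallower (median 5231.5 and 8525 UMIs against 5149.5 and 8469.5). The intervals lay apart in replicate 1, 3.83% to 8.03% against 9.25% to 11.3%, and overlapped in replicate 2. In siFXR1-LNA, macrophages without these genes were at 1.96% and 2.89%, so this kind was lower in replicate 1 and higher in replicate 2. For this kind the interval of siFXR1-LNA replicate 2, 1.88% to 7.59%, overlapped those of both siCont libraries. Macrophages with 2 or more UMIs of Nos2, the inducible nitric oxide synthase, were left out by the rule. They numbered 1211 and 1327 in siFXR1-LNA and 0 and 0 in siCont, so they could not be compared. With them included, the siFXR1-LNA shares were 2.36% and 2.98%.

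Members of both siFXR1-LNA libraries held fewer replication transcripts relative to mitosis transcripts. Replication UMIs summed over members were 5875, 6579, 307 and 1227, and mitosis UMIs were 14328, 14854, 1568 and 3708, in the order siCont 1, siCont 2, siFXR1-LNA 1, siFXR1-LNA 2. Replication genes thus gave 29.1% and 30.7% of the UMIs of both lists in siCont and 16.4% and 24.9% in siFXR1-LNA. The means were 29.9% ± 1.14 and 20.6% ± 6.00 (SD, n = 2), and the groups did not overlap (two-sided exact permutation p = 0.333, the smallest possible). Without siFXR1-LNA replicate 1 the difference was -5.02 percentage points, and without replicate 2 it was -13.5. With the members thinned to 2000 UMIs the shares were 28.4% and 29.1% against 14.1% and 24.2%, and among members with 10 or more list UMIs 27.8% and 29.6% against 14.97% and 24.4%. Non-cycling macrophages also held fewer replication UMIs per 2000 in siFXR1-LNA (0.710 and 0.704) than in siCont (1.19 and 1.03).

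Against non-cycling macrophages of the same libraries, members carried the whole cell cycle program, which the rule largely fixes and which is given as a description. Of 12031 genes tested with the library as a block, 7.91% passed an adjusted p of 0.05, 5.57% higher and 2.34% lower in cycling cells, and 20.4% had an unadjusted p under 0.05. Higher were 39 of 40 replication genes (median log2 fold change 2.18) and 49 of 50 mitosis genes (median 3.55), while the median of all genes was -0.05. Among the largest were Neil3, a DNA repair glycosylase, at 6.13, the PCNA-binding factor Pclaf at 5.45, the kinetochore gene Ska1 at 5.26 and the spindle motor Kif15 at 5.195. Birc5 (survivin), Spag5, Rrm2 and Kif4 lay between 4.69 and 4.97. Cdk1, the mitotic kinase, stood at 85.3, 111, 89.6 and 52.7 CPM in members and 12.5, 4.52, 5.00 and 3.20 CPM in non-cycling cells. Mcm5, a subunit of the replication helicase, stood at 77.4, 124, 13.6 and 36.5 CPM and 15.3, 20.7, 2.45 and 4.47 CPM.

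Promoters of the 2 lists are shown because their genes are known to move in separate waves. Mitosis genes are known to be held down outside G2 and mitosis through a short element called CHR, and replication genes to be driven by E2F. Promoters were taken from RefSeq (build GRCm38.p6), and the 250 bases before the start of each gene were searched on both strands, each gene counted once whatever the number or overlap of its matches. The CHR letters TTTGAA stood in 16 of 44 mitosis genes with a promoter in the table (36.4%), in 4 of 31 replication genes (12.9%) and in 18.3% of all 27025 genes. The E2F letters TTTCCCGC, TTTGGCGC or TTTCGCGC stood in 2 of 44 (4.55%), 9 of 31 (29.0%) and 1.78%. The CCAAT box, which often stands beside CHR, stood in 33 of 44, in 61.3% and in 37.5%. A match is a description of letters and not a site. The lines that follow are mitosis genes with CHR letters in capitals (on either strand), then replication genes with E2F letters in capitals, all 5′ to 3′ on the strand of the gene.
Cdk1 (chr10:69352913-69352938, minus strand): accgcggcgagTTTGAAactgctggc
Cdc20 (chr4:118437345-118437372, minus strand): gacagttgggtTTTGAAggagccaatga
Kif11 (chr19:37376352-37376379, plus strand): cgtctccatttTTCAAAattgaggcgcg
Ube2c (chr2:164769889-164769916, plus strand): gagggttgcaaTTCAAAcgcgggcggcg
Mcm5 (chr8:75109349-75109378, plus strand): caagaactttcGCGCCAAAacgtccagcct
Mcm6 (chr1:128359734-128359763, minus strand): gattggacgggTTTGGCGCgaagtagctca
Cdc6 (chr11:98908002-98908031, plus strand): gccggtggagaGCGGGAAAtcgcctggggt
Pola1 (chrX:93632275-93632304, minus strand): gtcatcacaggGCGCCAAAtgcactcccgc
Uhrf1 (chr17:56304117-56304146, plus strand): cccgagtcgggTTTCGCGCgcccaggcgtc

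The regulators that go with these waves rose too, and those of G1 mostly did not. Of 12 cell cycle transcription factors tested, 8 were higher in cycling cells and 0 lower. E2f1, which opens S phase, rose by 1.30 ± 0.18 (adjusted p = 3.70e-04). The late repressors E2f7 and E2f8 rose by 4.43 and 3.47, and Mybl2 and Foxm1, activators of mitotic genes, by 4.02 and 3.37. Myc did not pass (-0.05, adjusted p = 0.900). Of 14 G1 genes, 5 were higher, namely the kinases Cdk2 and Cdk4, the inhibitors Cdkn2c and Cdkn2d, and the pocket protein Rbl1. The D-type cyclins were not: Ccnd1 was at 167, 147, 27.2 and 40.5 CPM in members and 142, 179, 53.0 and 57.2 CPM in non-cycling cells (log2 fold change -0.26 ± 0.14 SE, adjusted p = 0.349). The inhibitor Cdkn1a stood at -0.46 (adjusted p = 0.0693). Of 14 nucleotide and one-carbon genes, 4 rose and 0 fell, with the purine enzymes Paics at 0.59 and Impdh2 at 0.82, Cad at 0.91 and Shmt1 at 1.56. All 14 had positive values, with a median of 0.46.

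Several genes of the macrophage program were lower in members. Klf2 (-0.58), Egr1 (-1.08), Cebpa (-0.52), Cebpb (-0.32) and Stat3 (-0.40), factors of the list of macrophage growth factors and their regulators, fell, and 0 of its 19 genes rose. Of 16 genes of peritoneal resident macrophages, 5 fell and 0 rose. They were Alox15, a lipoxygenase (-0.59, adjusted p = 0.0245), the lubricin gene Prg4 (-0.86, adjusted p = 3.84e-04), Lrg1 (-0.59), Ltbp1 (-1.84) and Tgfb2 (-1.17). Gata6, the factor that marks large peritoneal macrophages, stood at -0.67, adjusted p = 0.0571. Of 18 tumor-associated and lipid-handling genes, Spp1, Apoe, Cd9, Lpl and Vegfa fell, with log2 fold changes from -0.75 for Vegfa to -0.41 for Apoe, and Gpnmb rose (0.42, adjusted p = 0.0167). The class II antigen presentation genes H2-Aa, H2-Ab1, H2-Eb1 and Cd74 fell, with values between -0.40 and -0.31.

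Other lists held few calls against all non-cycling cells. Of 10 Lyve1 Folr2 type genes, Ccl8 and Gas6 fell, and of 12 genes of monocyte-derived cells Chil3, Thbs1 and Fn1 fell (-0.91, -0.42 and -0.36). Of 14 interferon-stimulated genes, Ifit2 and Ifit3 fell (-0.97 and -0.95), and of 19 inflammatory mediators Lcn2 fell (-0.72, adjusted p = 0.0237). Of the 15 hypoxia and glycolysis genes, 0 passed by edgeR's test with Benjamini-Hochberg adjustment. Of the macrophage identity genes outside the rule, Tyrobp, an adaptor of activating receptors, fell (-0.33), and 0 rose. Members were deeper than non-cycling cells, and against non-cycling cells matched on depth 3 of the 5 resident genes (Ltbp1, Lrg1, Prg4) passed, 0 of the 9 class II genes did, and Klf2, Cebpa, Cebpb and Stat3 still fell while Egr1 did not pass. Of the tumor-associated list Spp1, Lpl, Arg1 and Ctsl fell at matched depth, and Gpnmb, Apoe, Cd9 and Vegfa did not pass. Gpnmb passed in 6 of 14 alternatives, with log2 fold changes down to 0.04. Some of the other lists held more calls at matched depth. The identity genes Cd14, Aif1, Lyz2 and Itgam fell along with Tyrobp, as did 5 of 12 monocyte genes and, of 14 hypoxia genes, Slc2a1 and Ero1l. Of 17 inflammatory mediators 4 fell and 2 rose. With the stricter members, 6 of 12 monocyte, 6 of 13 interferon and 10 of 18 inflammatory genes fell and 0 rose. More genes passed there over all genes too, with 1098 of 11763 lower and 1109 higher. At matched depth 310 of 10049 genes were lower and 543 higher.

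The largest falls were genes of neutrophils. Retnlg was at 1.08, 10.4, 46.2 and 42.5 CPM in members and 3.41, 59.8, 366 and 797 CPM in non-cycling cells, and S100a8, a calcium-binding protein that fills neutrophils, at 26.3, 71.6, 342 and 834 CPM and 42.6, 228, 1065 and 2496 CPM. Stfa2l1 (-3.54), Asprv1 (-2.76), Pglyrp1 (-1.79), Mmp8 (-1.69) and Il1r2 (-1.62) fell with them, and so did the scavenger receptor Olr1 (-1.56). The summed level of the 6 neutrophil markers was 74.5, 160, 994 and 2120 CPM in members and 107, 588, 2684 and 5926 CPM in non-cycling cells. Ly6g, the marker that defines neutrophils, was at 0 in the members of 3 libraries. The share of members with 2 or more neutrophil UMIs was 4.37%, 32.8%, 64.4% and 66.0%, and of non-cycling cells 4.62%, 34.1%, 61.9% and 77.7%. Their part in these falls was not tested.

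**Figure D3:**
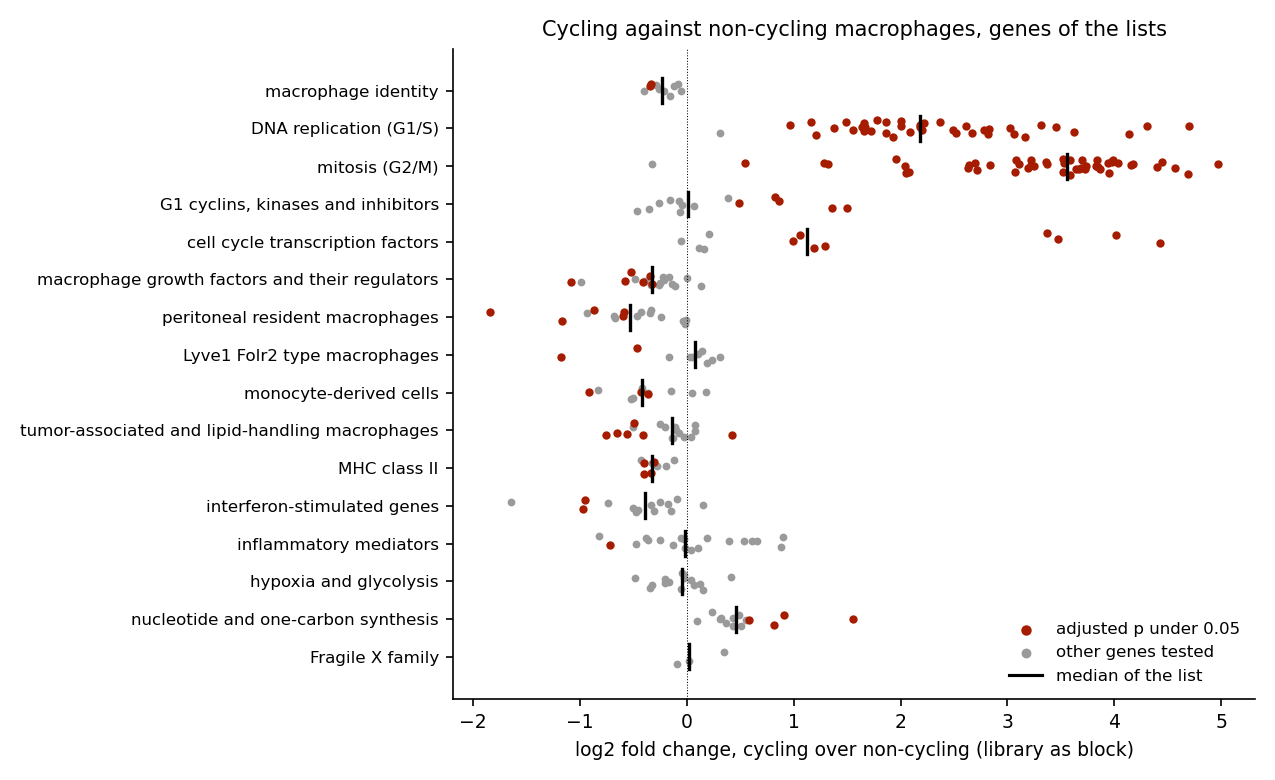
Log2 fold change of cycling over non-cycling macrophages for the genes of each list outside the rule (x axis), one point per gene, in red where the adjusted p was under 0.05, with the median of the list as a black bar. Replication and mitosis genes lie far to the right (medians 2.18 and 3.55), cell cycle factors at 1.13, and resident macrophage genes to the left at -0.53.

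Between the groups, cycling macrophages of the 2 siFXR1-LNA libraries differed from those of the 2 siCont libraries in genes of the inflammatory, hypoxia, interferon, class II and cell cycle lists. Of 9763 genes tested, 392 passed (4.02%), 241 higher (2.47%) and 151 lower (1.55%). These calls rest on both siFXR1-LNA libraries being present. Without siFXR1-LNA replicate 1, which has 45 members, 17 genes passed, and without replicate 2, 21 did. Without siCont replicate 1 and replicate 2 the counts were 932 and 924, and among members with 10 or more list UMIs 70. In the non-cycling macrophages, 565 of 13525 genes passed (4.18%), 2.34% higher and 1.84% lower.

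The replication genes were lower in siFXR1-LNA members. Of 39 tested, 10 fell and 0 rose, and the median log2 fold change was -1.17 against 0.0027 for all genes. In 37 of the 39 both siFXR1-LNA libraries lay below both siCont libraries, a pattern that 36.1% of all genes tested showed. Mcm5 stood at 77.4 CPM in siCont 1, 124 in siCont 2, 13.6 in siFXR1-LNA 1 and 36.5 in siFXR1-LNA 2 (log2 fold change -1.66 ± 0.36 SE, adjusted p = 0.0441). Its partners Mcm4 and Mcm6 stood at 83.9, 135, 21.7 and 41.5 CPM and 96.8, 127, 32.6 and 51.7 CPM, with log2 fold changes of -1.51, adjusted p = 0.0403 and -1.17, adjusted p = 0.0403. The libraries of the groups do not overlap for any of the 3, and siFXR1-LNA replicate 1 is the lowest each time. Cdc6, which loads the helicase, was at 18.4, 28.8, 2.72 and 4.05 CPM (-2.51, adjusted p = 0.0366). The siFXR1-LNA replicate 1 value is under the 8.15 CPM that 3 UMIs are worth there. Gins2, Pola1 (a DNA polymerase alpha subunit), Clspn, Uhrf1, Slbp (histone mRNA binding) and Rrm2 (ribonucleotide reductase) also fell, with log2 values from -1.23 to -1.90. Mcm5, Mcm6, Cdc6, Pola1 and Uhrf1, printed above with E2F letters, are among these 10 because the printed genes were picked from a short list that held all 10. A link between the letters and the falls was not tested. Pcna, the sliding clamp, was at 164, 197, 78.8 and 96.2 CPM and missed the threshold (-0.87, adjusted p = 0.0518).

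Mitosis genes were less clearly lower. Of 50, 4 fell and 0 rose, with a median of -0.63. Plk1, the kinase that drives mitotic entry, was at 51.8, 54.1, 19.0 and 20.3 CPM (log2 fold change -1.27 ± 0.25 SE, adjusted p = 0.0314). The kinetochore gene Ndc80 (42.5, 51.8, 13.6 and 16.2 CPM) and the spindle motors Kif11 (85.7, 95.1, 40.7 and 35.5 CPM) and Kif23 (81.3, 100.01, 32.6 and 27.3 CPM) fell with it, at -1.47, -1.13 and -1.49. The cyclin Ccnb1 stood at 45.7, 50.5, 54.3 and 32.4 CPM, where the groups overlap (-0.11, adjusted p = 0.885), and Cdk1 at 85.3, 111, 89.6 and 52.7 CPM (-0.40, adjusted p = 0.494). Among G1 genes, cyclin D1 (Ccnd1) was at 167 CPM in siCont 1, 147 in siCont 2, 27.2 in siFXR1-LNA 1 and 40.5 in siFXR1-LNA 2 (log2 fold change -1.99 ± 0.24 SE, adjusted p = 0.00510), and Rbl1 also fell (-1.31, adjusted p = 0.0298). Of the 12 cell cycle factors and 14 nucleotide genes 0 passed, and E2f1 was at 24.5, 35.6, 21.7 and 30.4 CPM (0.02, adjusted p = 0.993). The replication and mitosis calls did not stand among members with 10 or more list UMIs, where 0 of 39 replication genes (median -0.55) and 0 of 50 mitosis genes (median 0.05) passed. That mark counts UMIs of these same 2 lists and takes out members low in them. It can therefore narrow the difference by selection alone, and it keeps only 14 members in siFXR1-LNA replicate 1. The mark was met by 48.2% and 77.1% of thinned members in siCont and by 31.1% and 38.1% in siFXR1-LNA. The part of these unlike shares in the falls of both lists among all members was not tested. Leaving out siFXR1-LNA replicate 1 or replicate 2 also left 0 calls in both lists, with replication medians of -0.94 and -1.58. Ccnd1 passed in the stricter members.

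Inflammatory mediators were higher in siFXR1-LNA members. Of 18 tested, 10 rose and 0 fell, with a median of 2.79. Lcn2, a lipocalin that binds bacterial iron carriers, was at 3.96 CPM in siCont 1, 4.96 in siCont 2, 1489 in siFXR1-LNA 1 and 2059 in siFXR1-LNA 2 (log2 fold change 8.77 ± 0.31 SE, adjusted p = 1.25e-05). Saa3, an acute phase protein of macrophages, was at 679, 897, 32571 and 29849 CPM (5.47, adjusted p = 6.39e-05). The neutrophil attractants Cxcl2 (2.52, 22.1, 459 and 715 CPM, 5.81) and Cxcl3 (0, 0.901, 269 and 115 CPM) rose with them. Cxcl3 had 2 UMIs over all siCont members and 213 in siFXR1-LNA members, a ratio of summed CPM of 393 with a counting interval of 107 to 3264. Ccl3 (12.6, 17.1, 160.3 and 250.2 CPM, 3.97, adjusted p = 3.08e-04), Ccl4 (3.04), Ccl5 (3.76), Cxcl1 (3.61), Il1a (3.21) and Tnf (2.55) rose too. Il1b was at 35.3, 27.0, 16.3 and 107 CPM, where the groups overlap (1.33, adjusted p = 0.201). Other large rises were Slc7a11, the cystine transporter (1.08, 0.901, 206 and 134 CPM), Acod1, which makes itaconate (7.56, 1.80, 633 and 749 CPM), the metallothionein Mt2 (13.7, 5.41, 565 and 323 CPM) and Wfdc21 (0.720, 5.86, 329 and 376 CPM). For all of these the siFXR1-LNA libraries lay far above siCont. Lcn2, Saa3, Slc7a11, Acod1, Cxcl3 and Ccl3 also passed with either siFXR1-LNA library left out. Among members with 10 or more list UMIs, 5 of 15 inflammatory genes passed, Lcn2, Cxcl2, Saa3, Ccl5 and Ccl3.

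Of 14 hypoxia and glycolysis genes tested, 9 rose and 0 fell, all 14 had positive values, and the median was 1.07. Egln3, an oxygen sensor induced by HIF, was at 6.48, 12.2, 125 and 68.9 CPM (3.47, adjusted p = 0.00388), and the mitophagy gene Bnip3 at 24.1, 51.4, 323 and 178 CPM (2.87, adjusted p = 0.00797). The glucose transporter Slc2a1 stood at 16.2, 24.3, 136 and 76.0 CPM (2.47, adjusted p = 0.00765). Ero1l, Pgk1, Pkm, Tpi1, Hif1a and Gapdh also rose, with log2 fold changes from 0.87 to 2.63. Among members with 10 or more list UMIs, Egln3, Bnip3, Ero1l and Pkm passed, 4 of 14. With barcodes of 6 other cell type lists left out 3 passed, and without siFXR1-LNA replicate 1 or 2 there were 0 and 1. Of the tumor-associated list, Vegfa (8.998, 5.86, 111 and 72.9 CPM, 3.68, adjusted p = 0.00147), the checkpoint ligand gene Cd274 (27.4, 19.8, 117 and 111 CPM, 2.40, adjusted p = 0.00206), the protease gene Ctsl (1.81) and Gpnmb (1.72) rose and 0 of 17 fell. Cd14, a co-receptor for bacterial lipopolysaccharide, rose (81.0, 90.5, 424 and 392 CPM, 2.40, adjusted p = 5.90e-04). Of the monocyte list, the haptoglobin gene Hp (28.1, 44.1, 1070.2 and 1294 CPM) and Ly6c2 (151, 127, 733 and 373 CPM) rose, and Ms4a4c fell (-2.23). Among the stricter members Vegfa, Cd274, Ctsl, Cd14, Hp and Ms4a4c passed, and Gpnmb and Ly6c2 did not.

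Class II, interferon and Lyve1 type genes were lower. Of 9 class II genes, 4 fell and 0 rose, with a median of -1.29. Ciita, which switches these genes on, was at 62.3, 53.6, 8.15 and 18.2 CPM (-1.81, adjusted p = 0.0230), and H2-Ab1 at 2213, 2054, 693 and 1055 CPM (-1.13, adjusted p = 0.0318). H2-Eb1 and H2-DMb1 fell with them, and Cd74 missed the threshold (-1.11, adjusted p = 0.0689). Of 13 interferon-stimulated genes, 6 fell and 0 rose, with a median of -1.66. Irf7 was at 267 CPM in siCont 1, 206 in siCont 2, 27.2 in siFXR1-LNA 1 and 50.6 in siFXR1-LNA 2 (log2 fold change -2.35 ± 0.29 SE, adjusted p = 0.00524), and Isg15, Ifit2, Ifit3, Oasl2 and Bst2 fell between -1.37 and -2.96. Ifit3 had 0 UMIs in siFXR1-LNA replicate 1. Of 10 Lyve1 Folr2 type genes, Lyve1, a hyaluronan receptor (238, 219.8, 21.7 and 43.6 CPM, -2.53, adjusted p = 0.00302), the folate receptor gene Folr2 (328, 254, 57.0 and 106 CPM) and Cbr2 (692, 549, 81.5 and 175 CPM) fell. Of 15 resident genes Cd5l, which protects macrophages from cell death, fell (382, 241, 84.2 and 76.0 CPM, -1.83, adjusted p = 0.0127). Alox15 (65.5, 208, 106 and 76.0 CPM) and Gata6 (21.96, 6.31, 24.4 and 11.1 CPM) overlapped between the groups. Among members with 10 or more list UMIs, 0 of 7 class II genes passed (median -0.67), and of the other lists Irf7, Bst2 and Cbr2 did and Cd5l did not. With barcodes of 6 other cell type lists left out, 0 of 7 class II genes, Isg15, Irf7 and Cbr2 passed. Without siFXR1-LNA replicate 1 or 2, 0 genes of the class II, interferon, Lyve1 Folr2 and resident lists passed. The largest falls outside the lists and the mast cell genes were Ifit3b, Slfn4, Scimp, BC147527, Retnla and Spint1. Retnla, a marker of macrophages exposed to IL-4, was at 1118, 970.3, 13.6 and 182 CPM (-3.10, adjusted p = 0.0344). Ifit3b had 101 UMIs in siCont members and 1 in siFXR1-LNA members, 27.4 times higher in siCont CPM (counting interval 4.81 to 1092). Slfn4 stood at 62.3, 41.4, 5.43 and 3.04 CPM and Spint1 at 28.4, 25.2, 2.72 and 3.04 CPM. Scimp and BC147527 had 2 UMIs each in siFXR1-LNA members and were 14.5 and 13.8 times higher in siCont (3.92 to 121 and 3.73 to 116).

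Markers of other cell types moved with the groups. Mcpt4 and Cma1, proteases of mast cells, were among the largest falls, at 215, 37.4, 0 and 2.03 CPM and 319, 84.7, 8.15 and 9.12 CPM. The summed level of the 5 mast cell and basophil markers in members was 435 and 91.0 CPM in siCont and 24.4 and 18.2 CPM in siFXR1-LNA. Mcpt4, Fcer1a and Ms4a2 were at 0 in the members of siFXR1-LNA replicate 1. Of siCont members, 69.7% and 27.6% held 2 or more UMIs of this list, and 59.6% and 24.3% of non-cycling siCont macrophages did. Mcpt4 had 680 UMIs in siCont and 2 in siFXR1-LNA members, a CPM ratio of 92.2 (counting interval 25.4 to 763). Neutrophil markers went the other way, at 74.5 and 160 CPM in siCont and 994 and 2120 CPM in siFXR1-LNA members. Lcn2, Wfdc21, S100a8 (3.78) and Mmp8 (5.39) rose in members along with them. The erythroid list summed to 73297 and 38448 CPM against 22643 and 9976 CPM. Fibroblast markers summed to 129.6 and 12.2 CPM against 204 and 67.9 CPM, and the tumor or mesothelial list to 248 and 36.0 against 158 and 167 CPM. The part of these markers in the group differences was not tested. With barcodes left out that held 2 or more UMIs of the B cell, T cell, NK cell, dendritic cell, tumor or mesothelial, or fibroblast list, 112 genes passed, among them Lcn2, Saa3, Slc7a11 and Acod1, and 0 replication or mitosis genes. The neutrophil and mast cell lists were not used there, so barcodes with those markers stayed in.

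**Figure D4:**
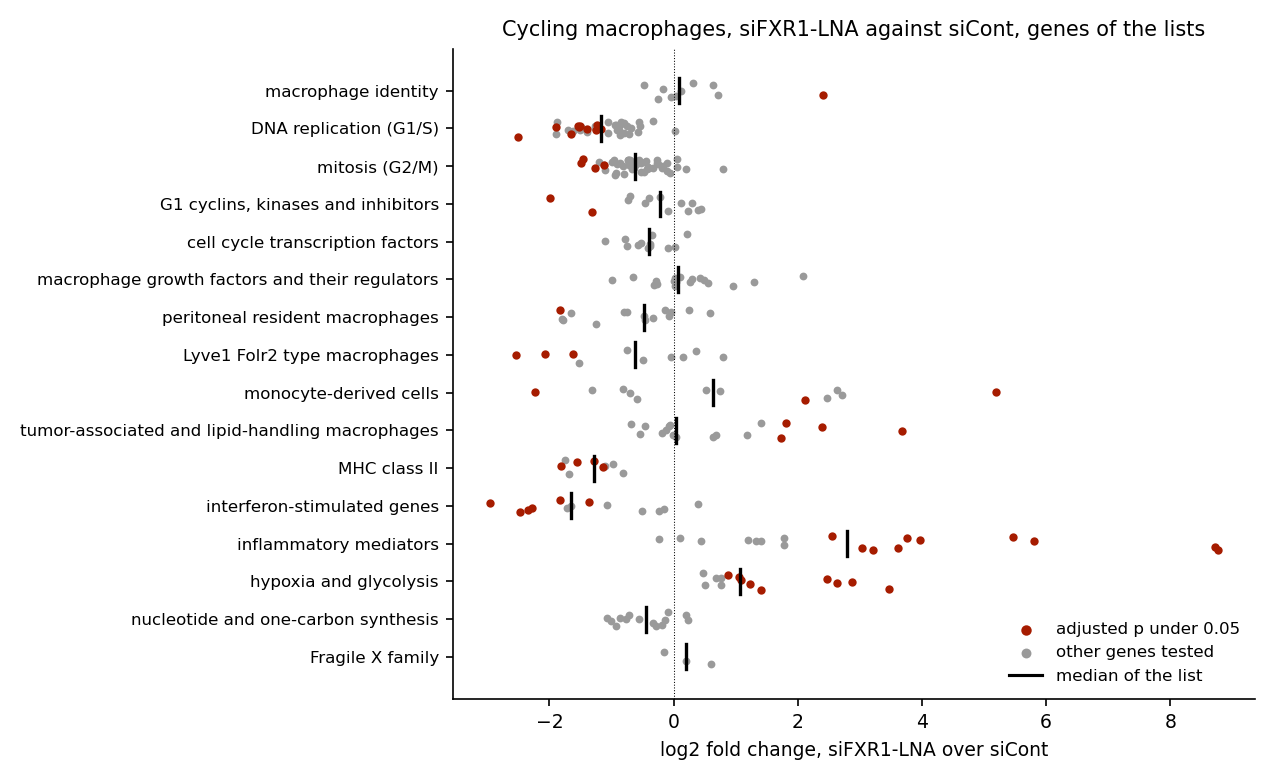
Log2 fold change of siFXR1-LNA over siCont in cycling macrophages for the genes of each list outside the rule (x axis), one point per gene, in red where the adjusted p was under 0.05, with the median of the list as a black bar. Inflammatory mediators (median 2.79) and hypoxia genes (1.07) lie to the right, and replication (-1.17), class II (-1.29) and interferon-stimulated genes (-1.66) to the left.

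**Figure D5:**
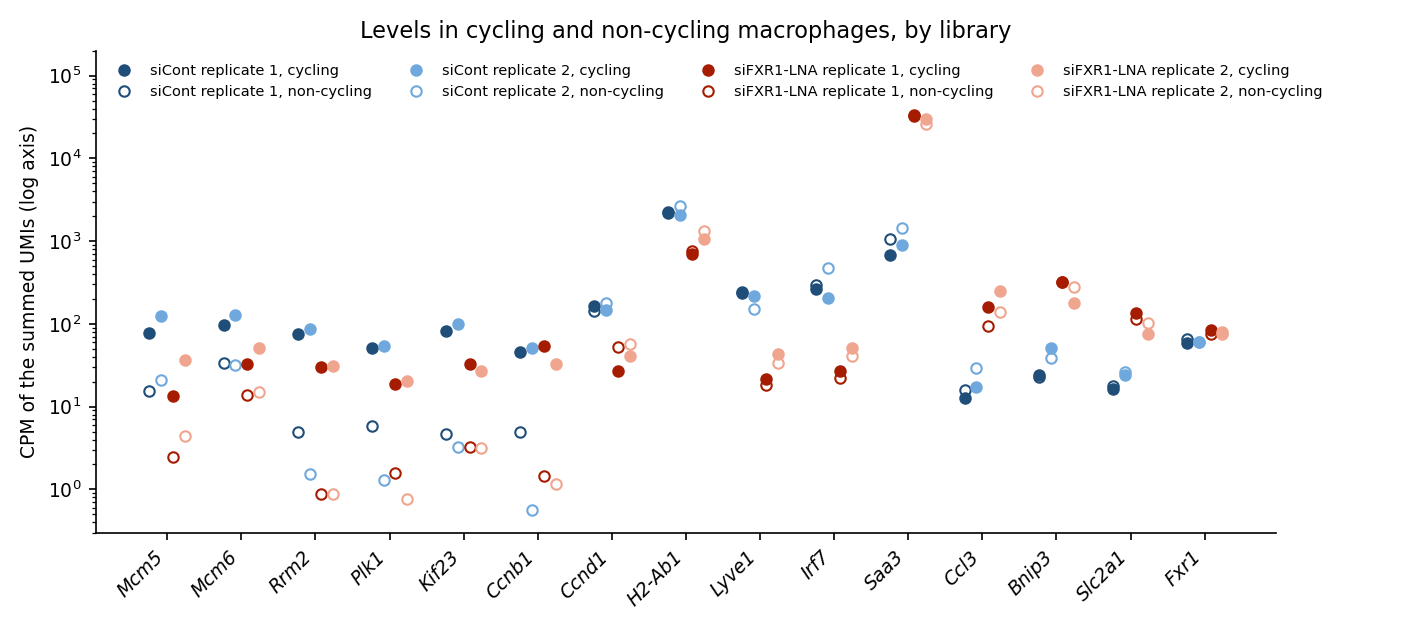
CPM of 15 genes (log axis) in the 4 libraries, filled circles for cycling and open circles for non-cycling macrophages, blue for siCont and red for siFXR1-LNA. Mcm5, Mcm6, Rrm2, Plk1, Kif23 and Ccnb1 are higher in the filled circles of every library, while the levels of H2-Ab1, Lyve1, Irf7, Saa3, Bnip3 and Slc2a1 follow the group in both states.

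Group differences of the same sign were seen in non-cycling macrophages, which are other cells of the same libraries. Lcn2 had a log2 fold change of 8.77 in members and 7.89 in non-cycling cells, Saa3 5.47 and 4.65, Bnip3 2.87 and 3.36, Lyve1 -2.53 and -2.87, and Mcm5 -1.66 and -2.29. An interaction term, fitted with each library as its own block, tested whether the change differed between the states. Of 12880 genes, 37 passed (0.287%), 24 with a higher change in members (0.186%) and 13 with a lower (0.101%), and 8.97% had an unadjusted p under 0.05. Acod1 rose by 7.26 in members and 5.09 in non-cycling cells (difference 2.03, adjusted p = 0.0321). The chemokine genes Ccl4 (2.08, adjusted p = 0.0392), Ccl5 (1.77, adjusted p = 0.0393), Ccl7 (1.88, adjusted p = 0.0139) and Cxcl10 (2.42, adjusted p = 0.0393) had higher changes in members, as had Ly6c2 (1.91), whose non-cycling level was 272, 800.3, 506 and 396 CPM. Slbp had a lower change in members (-1.23, adjusted p = 0.0393), and so had the decoy receptor gene Il1r2 and the stefin gene Cstdc4 (-2.10 and -4.37). Of the 40 replication genes 1 passed, Slbp, and of the 50 mitosis genes 1, Hmgb2, which rose in non-cycling cells (87.1, 94.6, 166 and 188 CPM) and did not pass in members (495, 689.7, 543 and 473 CPM). Against non-cycling cells matched on depth, 0 genes passed by edgeR's test (818 at an unadjusted p under 0.05), and DESeq2 with all cells called 20. Without siFXR1-LNA replicate 2 there were 3 calls, and without the other libraries in turn 64 to 174.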

How the data were processed

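Single-cell RNA was measured in ascites of FVB mice, 2 libraries per group. The deposited files hold raw UMI counts, as whole numbers for every gene in every barcode that the authors kept, over 32285 gene identifiers. The submitters' processing notes name Cell Ranger 7.0.0. All barcodes were present as deposited, so the limits on genes and mitochondrial share were applied here. Groups came from the sample labels. The members and gene lists were chosen with earlier results of these data known.

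UMI counts of the members, and of macrophages with no UMI of Mki67 or Top2a, were summed per library and given as CPM. Sums were tested with edgeR 4.0.16 (R 4.3.3; TMM, filterByExpr, quasi-likelihood test) and Benjamini-Hochberg adjustment over all genes tested, at an adjusted p of 0.05. The 2 states were compared with the library as a block, and the difference of the group change as an interaction. The 13 genes of the rule were left out. Shares were compared over libraries by two-sided exact permutation tests (Python 3.11.15, scipy 1.17.1), with 95% exact binomial (Clopper-Pearson) intervals that cover counting error only. Named genes were the 8 largest rises and 8 largest falls past the threshold with at least 20 CPM in the higher group and no overlap between groups (or the same direction in all 4 libraries), and genes of the lists. Doublets were not removed in the results given. An alternative left out the highest 5% of Scrublet scores (scanpy 1.11.5). Other alternatives were DESeq2 1.42.0, no filter on low counts, thinning to 2000 or 3000 UMIs, other limits, a replicate block and each library left out. On simulated counts the group test recovered 9.9% of genes changed by 1 on the log2 scale and 76% of those changed by 2. The simulation set the spread between libraries (dispersion) at 0.05 for every gene. It was not estimated from these libraries, so recovery in these data can differ. The labels do not say that samples came from separate experiments, so p-values measure only the spread between these libraries. A gene of the lists is not reported here.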

Additional observations from a re-analysis of the deposited data

Results flagged for a closer look

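The siFXR1-LNA change differed between cycling and non-cycling macrophages for the genes that follow, by edgeR's interaction test with Benjamini-Hochberg adjustment. The log2 difference (change in cycling minus change in non-cycling cells) was 2.42 for Cxcl10, 2.08 for Ccl4, 2.03 for Acod1, 1.91 for Ly6c2, 1.88 for Ccl7, 1.77 for Ccl5, 1.76 for Cdc42ep2 and 1.73 for Marco. It was -4.37 for Cstdc4, -2.10 for Il1r2, -1.59 for Crip2, -1.52 for Ccn2, -1.47 for Hist1h1c, -1.23 for Atp1b1, -1.23 for Slbp and -1.23 for Igfbp5. None of them passed against non-cycling cells matched on depth, where 0 of 10836 genes passed and 818 had an unadjusted p under 0.05.

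Macrophages with 2 or more UMIs of Nos2, which the rule leaves out, also held cells with 2 or more UMIs of Mki67 and Top2a. They were 3.39% and 3.32% of these macrophages in siFXR1-LNA replicates 1 and 2, and siCont had 0 such macrophages to compare. Thinned to 2000 UMIs the shares were 0.663% and 0.151%.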

How the results depend on the processing

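The share of cycling macrophages was lower in siFXR1-LNA under each alternative run, with differences of -13.9 to -3.29 percentage points, and of -7.99 to -6.99 with 1 library left out. The replication share of the members differed by -9.66 to -9.03 points, and by -13.5 to -5.02 with 1 library left out.

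Of the group comparison in members, 392 genes became 713 with the replicate block, 70 with the stricter members, 1121 with no filter on low counts, 1347 with any number of Nos2 UMIs, 112 with 6 lists of other cell types left out and 150 after thinning. With 1 library left out the count was 17 to 932. The list genes, 57, became 87, 20, 123, 129, 21 and 34 in the same order, and 6 to 116. Deviations of the replicate 1 libraries from their group means were close to uncorrelated (r = 0.0234 over genes). A block with the numbers crossed between the groups gave 470 genes. The replicate block is therefore only a hint from shared numbers. Of 70 named genes, 69 held under the replicate block.

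Of the comparison of states, 952 genes became 2207 with the stricter members, 294 without the library block, 1584 with no filter and 1435 with at least 3 UMIs of Mki67 and Top2a, and 493 to 856 with 1 library left out. Its 135 list genes became 78 without the library block, and 106 to 130 with 1 library left out. Of the interaction, 37 genes became 20 by DESeq2, 118 with the stricter members, 0 at matched depth, 167 with no filter, 77 without the highest Scrublet scores and 141 with at least 3 UMIs, and 3 to 174 with 1 library left out.

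Values that changed sign were Lcn2 between states with no upper limit on genes (0.24), Marco (-0.089) and Il1r2 (0.23) in the interaction with 6 lists left out, and Saa3 in the interaction at matched depth (-0.22). The cause was not tested. Leaving out barcodes with 2 or more UMIs of any other cell type was not run, since hemoglobin in nearly all barcodes left no cells. The 45 members of siFXR1-LNA replicate 1 limit what the group test can show. Fits with 1 library in a group assume that it varies like the others.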
